A study of Saccharomyces cerevisiae with 6 samples.

Results

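The vacuolar ATPase pumps protons into the vacuole, the Golgi and endosomes of yeast, using ATP split by its peripheral V1 sector to turn a rotor in its membrane sector, V0. In V0 a ring of proteolipids carries the protons, subunit a lines the path by which they enter and leave, subunit d caps the ring, and subunit e is a small membrane protein. Subunit a has alternative forms, VPH1 (YOR270C) at the vacuole and STV1 (YMR054W) at the Golgi and endosomes. VMA3 (YEL027W), VMA11 (YPL234C) and VMA16 (YHR026W) encode the proteolipids c, c' and c'', VMA6 (YLR447C) encodes subunit d and VMA9 (YCL005W-A) subunit e. These 7 open reading frames were chosen by their identifiers, were all found among the 6603 in the table, and all passed the filter on low values (a mean of at least 10 normalised reads).

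The samples were 3 libraries of RNA assemblies and 3 libraries of total RNA. The source was untreated BY4741, a Saccharomyces cerevisiae laboratory strain, in log phase, whose RNA was taken up with phenol and chloroform. Depletion of ribosomal RNA (Ribo-Zero) belonged to library making. Assemblies are RNA that condensed in a test tube at 150 mM NaCl, 10% PEG (polyethylene glycol), 1 mM MgCl2 and 150 ug/mL total yeast RNA and was pelleted. The labels name that buffer for the total RNA as well, which the design text lists only for comparison. Values are read counts divided by 1 size factor per library, called normalised reads, so each difference is relative to the median gene and says nothing about the amount of RNA.

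Libraries held 8749240 to 10531980 reads. Nothing in the labels ties a library to its own culture or assembly reaction, so the spread on which each p-value rests could be technical. Within a group, the closest pair was total RNA libraries 1 and 2 (chi-square per degree of freedom 1.57), where other pairs had 12.1 to 59.8, and the pairs with assembly library 3 were the furthest apart. Of the genes deleted in BY4741, LEU2 and MET17 had 0 reads in all libraries, and URA3 had a read in total RNA library 2 alone. HIS3, of which the strain's deletion leaves a part, had 179.3 ± 22.9 normalised reads in assemblies, against 250.8 ± 37.8 in total RNA (n = 3 each, SD). For the mating type a, the alpha-factor gene MF(ALPHA)1 was at 5.89 to 7.26 in assemblies and 2.56 to 6.04 in total RNA, and the a-factor gene MFA1 averaged 236.4 ± 9.0 normalised reads in assemblies, against 554.9 ± 23.2 in total RNA (n = 3 each, SD).

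The V0 set was proposed with the comparison of assemblies with total RNA already known, so its members' values are a description and carry no test. The mRNAs of V0 did not all go the same way. Those of subunit a, VPH1 and STV1, the longest genes of the 7, stood higher in assemblies. Those of the proteolipids and of subunits d and e stood lower, most of all VMA3. By limma on log2(value + 1) with an adjusted p threshold of 0.05, 2 of 7 members were called higher and 5 of 7 lower, where 41.3% and 40.8% of the 5670 genes tested were called higher and lower (82.2% in either direction). Among genes from 2000 to below 4000 nt, the length of VPH1 and STV1, 86.8% were called higher. Of genes under 500 nt (as VMA3, VMA11 and VMA9), 73.3% were called lower. That share was 69.1% from 500 to below 1000 nt (VMA16) and 35.1% from 1000 to below 2000 nt (VMA6). The 5 lower members were all lower by 2-fold or more, which held for 25.8% of genes tested, and the 3 assembly values did not overlap the 3 total RNA values in any of the 7, as in 85.3% of genes tested. The median log2 fold change was -1.11 over the members and 0.017 over all genes tested. Under equal library totals, the median gene moved to -0.54, the calls over all genes became 1584 higher and 3045 lower, against 2342 higher and 2316 lower with the deposited scaling, and the 7 members kept their directions. Once coding length and GC content were modelled, they did not all do so: VPH1 turned to -0.11, VMA9 lost its call, and the median over the members was -0.38. In that fit 1 member was called higher and 4 lower, where 34.6% and 35.4% of 5504 nuclear genes were called higher and lower.

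**Figure D1:**
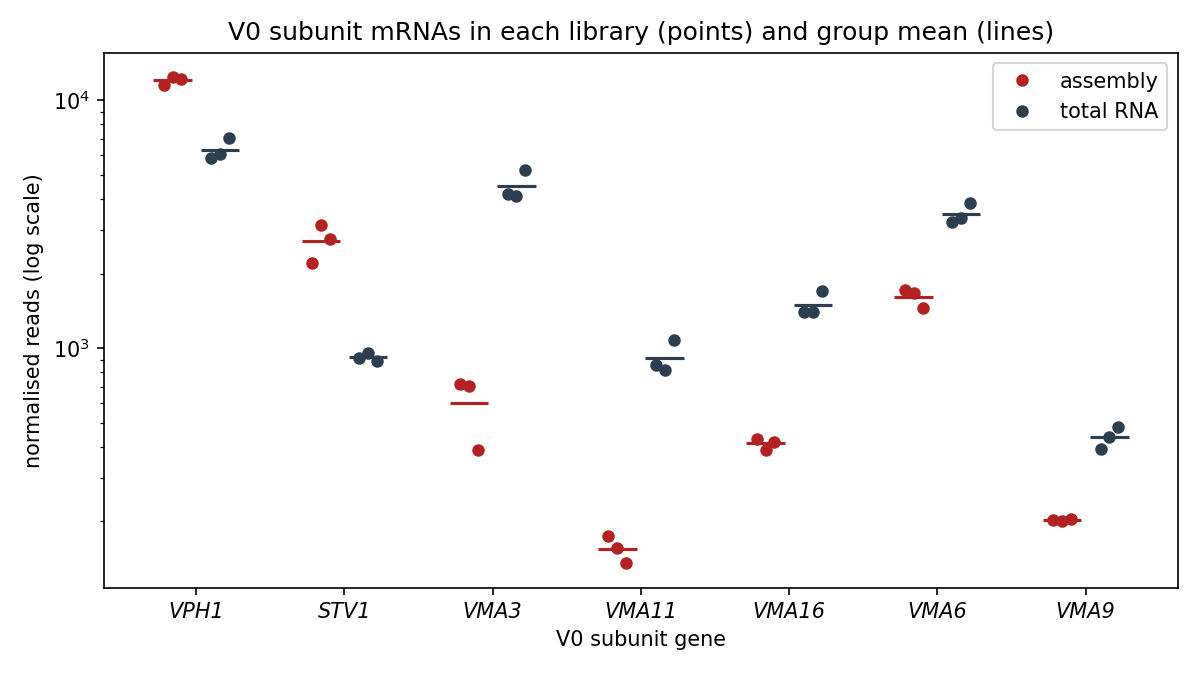
Normalised reads (log axis) of the 7 V0 genes in the 3 assembly and 3 total RNA libraries; points are libraries and lines are group means. VPH1 and STV1 lie higher in assemblies, the other 5 lie lower, and assembly library 3 is the low point of VMA3 (386.6).

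The proteolipid genes lie on separate chromosomes and differ in sequence. VMA3 lies on chromosome V at 100769 to 101251 (plus strand), VMA11 on chromosome XVI at 104946 to 105440 (minus strand) and VMA16 on chromosome VIII at 160844 to 161485 (plus strand; RefSeq annotation of build R64, coding sequence coordinates without untranslated regions). Each is a coding sequence in 1 part that overlaps no other annotated gene. VMA3 and VMA11, the closest pair of the 3, were identical at 67.3% of 465 aligned bases, and their longest shared run was 11 bases. The 90-base window of their alignment with the most identical bases is shown because it holds the glutamate codon on which proton transport by these subunits depends, codon 137 of VMA3 and codon 145 of VMA11, a GAA at base 46 of the window in both; capitals mark the 72 bases that the genes share (RefSeq genome, build R64, VMA3 at chrV:101132-101221, plus strand, and VMA11 at chrXVI:104964-105053, minus strand).
VMA3: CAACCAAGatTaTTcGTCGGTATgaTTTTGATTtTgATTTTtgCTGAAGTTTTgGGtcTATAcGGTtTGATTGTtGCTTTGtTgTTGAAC
VMA11: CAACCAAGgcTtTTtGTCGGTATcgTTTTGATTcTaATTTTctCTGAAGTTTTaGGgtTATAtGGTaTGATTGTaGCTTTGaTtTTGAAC

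VMA3 encodes the proteolipid c that makes up most of the ring. It had 718.7, 703.2 and 386.6 normalised reads in assembly libraries 1, 2 and 3, against 4203, 4122 and 5236 in the total RNA libraries of the same numbers. All assembly values lay far below all total RNA values, and assembly library 3 was the lowest and total RNA library 3 the highest. Its log2 fold change was -2.95 (SE 0.22), a level 7.73-fold lower in assemblies, and it was -2.66 without assembly library 3. The coefficient of variation of VMA3 over assembly libraries was 31.1%, against a counting error of 4.47% at its mean read number.

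VMA11 encodes proteolipid c', which yeast carries beside c. It had 174.2, 156.1 and 135.6 normalised reads in assemblies, against 852.0, 813.5 and 1083 in total RNA, with a log2 fold change of -2.55 (SE 0.15). The groups were far apart, although these were the fewest reads of any member, 115 to 143 per assembly library. VMA16 encodes proteolipid c'', the longest of the ring proteins. It had 431.2, 389.8 and 417.3 normalised reads in assemblies, against 1404, 1399 and 1699 in total RNA, with a log2 fold change of -1.86 (SE 0.13). Its assembly libraries varied by 5.12%, close to the counting error of 5.40%, and assembly library 3 was not its lowest.

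The ratios among proteolipid mRNAs, taken from normalised reads plus 1 and per kb of coding length, differed between the groups. VMA3 stood above VMA11 by a ratio of 4.21, 4.59 and 2.91 in assemblies and 5.05, 5.19 and 4.95 in total RNA. It stood above VMA16 by 2.21, 2.40 and 1.23 in assemblies and 3.98, 3.91 and 4.09 in total RNA. In both pairs with VMA3 every assembly ratio was below every total RNA ratio, and assembly library 3 was the lowest. VMA16 stood above VMA11 by 1.90, 1.92 and 2.36 in assemblies and 1.27, 1.33 and 1.21 in total RNA, so this ratio was higher in assemblies. The groups did not overlap in 85.3% of single genes tested, and no such share was computed for other gene pairs.

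VPH1 and STV1 encode the interchangeable forms of subunit a, the largest V0 protein. VPH1 lies on chromosome XV at 828052 to 830574 (minus strand) and STV1 on chromosome XIII at 383303 to 385975 (plus strand), each in 1 part without an overlapping gene. Their coding sequences were identical at 64.2% of 2439 aligned bases, with a longest shared run of 19 bases. The 90-base window with the most identical bases (75, in capitals) is shown as the stretch where the genes are most alike (VPH1 at chrXV:829297-829386, minus strand, and STV1 at chrXIII:384629-384718, plus strand, build R64).
VPH1: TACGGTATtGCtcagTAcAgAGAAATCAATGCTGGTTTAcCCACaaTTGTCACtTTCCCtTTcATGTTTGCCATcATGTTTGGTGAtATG
STV1: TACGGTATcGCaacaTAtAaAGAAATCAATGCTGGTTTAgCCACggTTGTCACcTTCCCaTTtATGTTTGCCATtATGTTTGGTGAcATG

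VPH1 had 11544, 12398 and 12249 normalised reads in assemblies, against 5849, 6092 and 7050 in total RNA. Every assembly value was above every total RNA value, and the log2 fold change was 0.93 (SE 0.13). It was 0.37 under equal library totals and turned to -0.11 once coding length and GC content were modelled. STV1 had 2209, 3135 and 2756 normalised reads in assemblies, against 912.5, 953.9 and 890.8 in total RNA, with a log2 fold change of 1.54 (SE 0.14). The groups of STV1 were wide apart, with assembly library 1 the lowest of its group, and its log2 fold change was 0.26 once length and GC content were modelled.

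STV1 mRNA was the scarcer form in both groups. Per kb, the ratio of STV1 to VPH1 was 0.181, 0.239 and 0.212 in assemblies and 0.147, 0.148 and 0.119 in total RNA. The ratio was higher in each assembly library than in any total RNA library, as both forms stood higher in assemblies and STV1 by the larger factor. How many other gene pairs had such a gap was not computed.

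VMA6 encodes subunit d, the only V0 subunit without a membrane span, and lies on chromosome XII at 1026856 to 1027893 (minus strand). It had 1713, 1663 and 1459 normalised reads in assemblies, against 3239, 3347 and 3842 in total RNA. The groups did not overlap, and the log2 fold change was -1.11 (SE 0.13), or -0.38 once length and GC content were modelled.

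VMA9 encodes subunit e and has the shortest coding sequence of the 7, 222 nt on chromosome III within 107023 to 107417 (plus strand). It is the only member with introns: parts of 11, 81 and 130 coding bases are split by introns of 77 and 96 bases. The first 300 bases of the gene (chrIII:107023-107322, build R64), which hold both introns, are shown with coding bases in capitals, because its parts are short beside a typical read. The Bowtie generation named in the submitters' processing notes aligns reads without gaps, and the sources used here do not say whether the target was the genome or spliced sequences. On the genome, reads that cross a splice junction would be lost and the level of VMA9 understated in both groups.
VMA9: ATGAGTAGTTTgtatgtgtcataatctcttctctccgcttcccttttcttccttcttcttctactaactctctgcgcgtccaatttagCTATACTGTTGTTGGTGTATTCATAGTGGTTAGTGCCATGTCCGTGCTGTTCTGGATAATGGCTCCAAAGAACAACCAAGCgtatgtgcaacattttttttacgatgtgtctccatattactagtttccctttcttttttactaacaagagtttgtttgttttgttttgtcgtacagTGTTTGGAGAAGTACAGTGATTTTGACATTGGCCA

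VMA9 had 202.2, 200.9 and 203.9 normalised reads in assemblies, against 392, 439.5 and 482.5 in total RNA. Its coding sequence is shorter than any proteolipid gene's, and its log2 fold change was -1.11 (SE 0.13). It was -0.21 once length and GC content were modelled, which ended its call. The assembly values differed by less (coefficient of variation 0.742%) than the counting error of 7.71% at 166 to 173 reads per library.

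Levels per kb of coding length put the members in a different order in each group. In total RNA, VMA3 stood first with 9358 ± 1286 normalised reads per kb, followed by VMA6 (3349 ± 310), VPH1 (2509 ± 252), VMA16 (2338 ± 267), VMA9 (1973 ± 204), VMA11 (1851 ± 295) and STV1 (343.8 ± 12; all SD, n = 3). VPH1 and VMA16 overlapped in their values over libraries, as did VMA9 and VMA11, and the other neighbours did not. In assemblies, VPH1 stood first with 4782 ± 181 per kb, followed by VMA6 (1553 ± 129), VMA3 (1248 ± 388), STV1 (1010 ± 174), VMA9 (911.5 ± 6.76), VMA16 (642.9 ± 32.9) and VMA11 (313.7 ± 39.1; all SD, n = 3). There VMA6 overlapped VMA3, VMA3 overlapped STV1 and STV1 overlapped VMA9, and the other neighbours did not. Of 5504 nuclear genes tested that have a coding length, the share with a lower level per kb than VMA3 was 82.2% in assemblies and 96.7% in total RNA, and the share below VMA11 was 48.3% in assemblies and 89.7% in total RNA. With 200 nt added to each coding length for untranslated regions, VMA11 (1318) came before VMA9 (1038) in total RNA. In assemblies STV1 then came before VMA3, and VMA16 before VMA9.

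**Figure D2:**
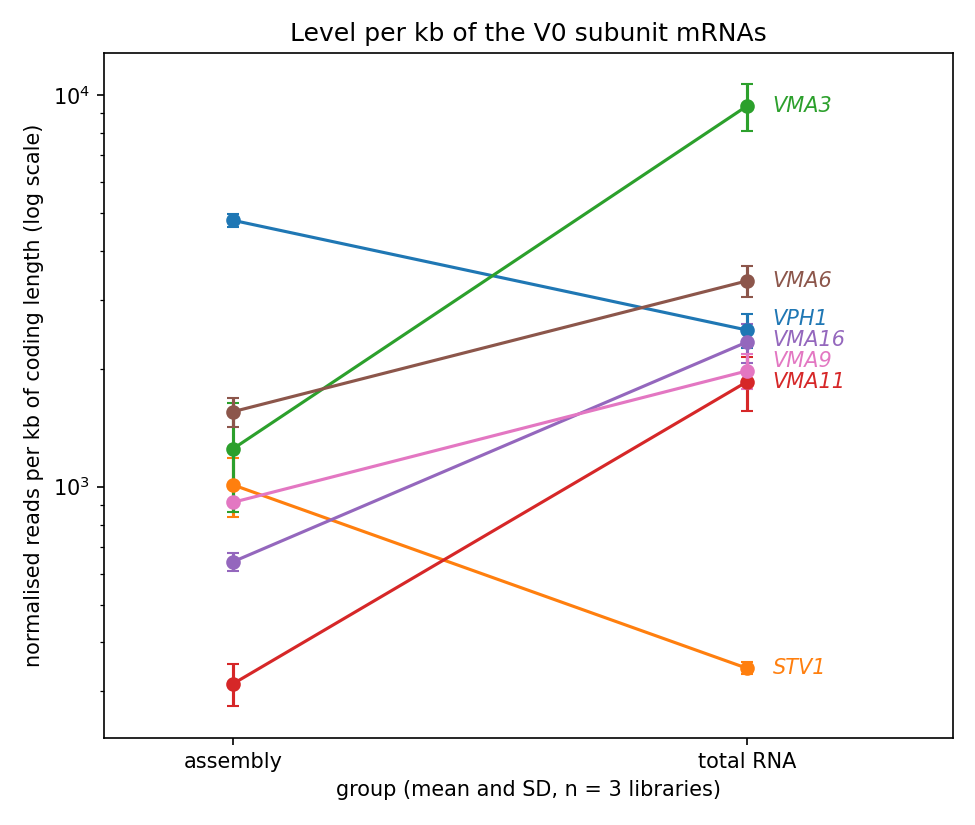
Normalised reads per kb of coding length (log axis) of the 7 V0 genes, as mean and SD of 3 assembly and 3 total RNA libraries, with a line for each gene. VMA3 stands at 1248 in assemblies, where VPH1 is highest (4782), and is highest in total RNA (9358).

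Reads of all V0 genes together made up 0.159%, 0.153% and 0.142% of assembly libraries 1, 2 and 3, against 0.217%, 0.223% and 0.244% of the total RNA libraries in the same order. Of these V0 reads, VPH1 took 68.0 ± 1.54% in assemblies, against 35.0 ± 0.434% in total RNA (n = 3 each, SD). VMA3 took 3.40 ± 1.07% in assemblies, against 24.9 ± 0.902% in total RNA, and VMA6 took 9.10 ± 0.909% in assemblies, against 19.2 ± 0.278% in total RNA (n = 3 each, SD). The makeup within each group differed little between libraries beside these gaps.

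**Figure D3:**
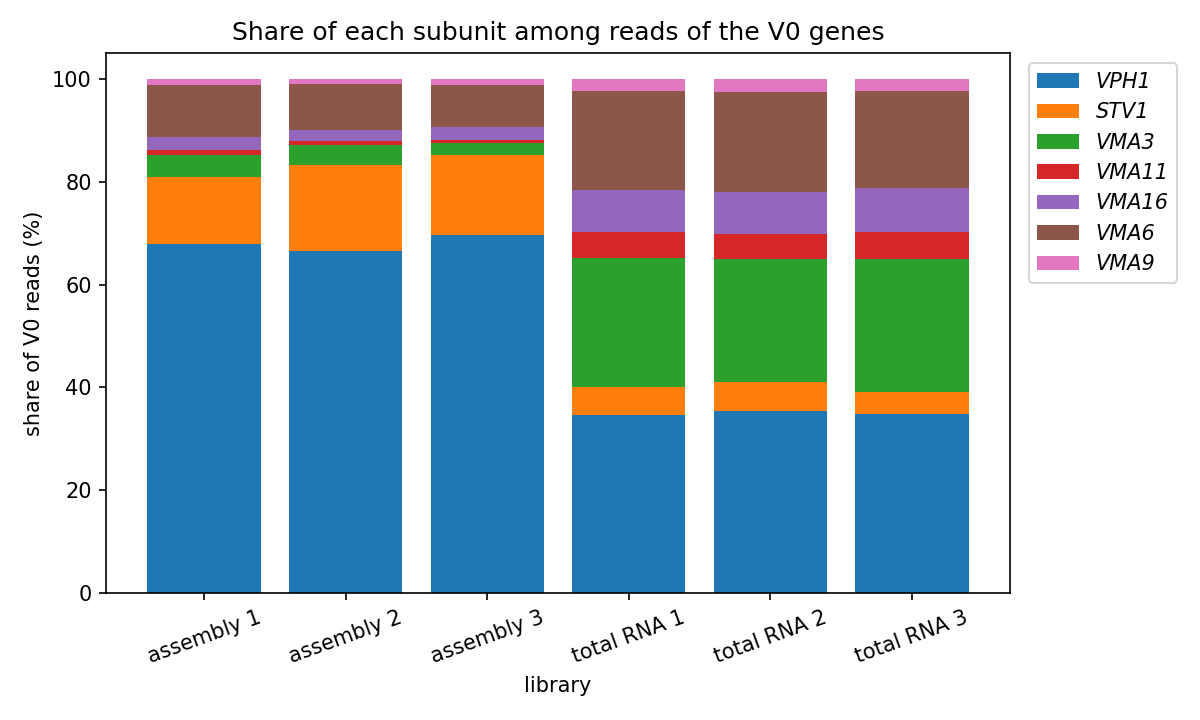
Share (%) of each gene among the reads of the 7 V0 genes, in 3 assembly libraries and then 3 total RNA libraries. The VPH1 block takes 66.5% to 69.6% in assemblies and 34.7% to 35.5% in total RNA, while the VMA3 block takes 2.20% to 4.23% in assemblies and 24.0% to 25.8% in total RNA.

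The members differ in coding length, which was related to the fold change over all genes (Spearman's rho 0.676 over 5504 nuclear genes, which share libraries and are not independent). VPH1 (2523 nt) and STV1 (2673 nt) lie in the range from 2000 to below 4000 nt, whose 1078 genes had a median log2 fold change of 1.25, and 34.2% of those genes were below VPH1 and 66.1% below STV1. VMA6 (1038 nt) lies in the range from 1000 to below 2000 nt, with a median of 0.093 over 2148 genes, of which 12.8% were below it. VMA16 (642 nt) lies in the range from 500 to below 1000 nt, with a median of -0.94 over 1390 genes, of which 14.1% were below it. In the 692 genes under 500 nt the median was -1.34, and 0.289% of them were below VMA3 (483 nt), 4.48% below VMA11 (495 nt) and 57.4% below VMA9. VMA3 and VMA11 stood among the lowest genes of their length, and subunits a and e nearer to the middle. Once length and GC content were modelled, the log2 fold changes of VMA3, VMA11, VMA16 and VMA6 were smaller in size, at -1.97, -1.64, -0.95 and -0.38.

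**Figure D4:**
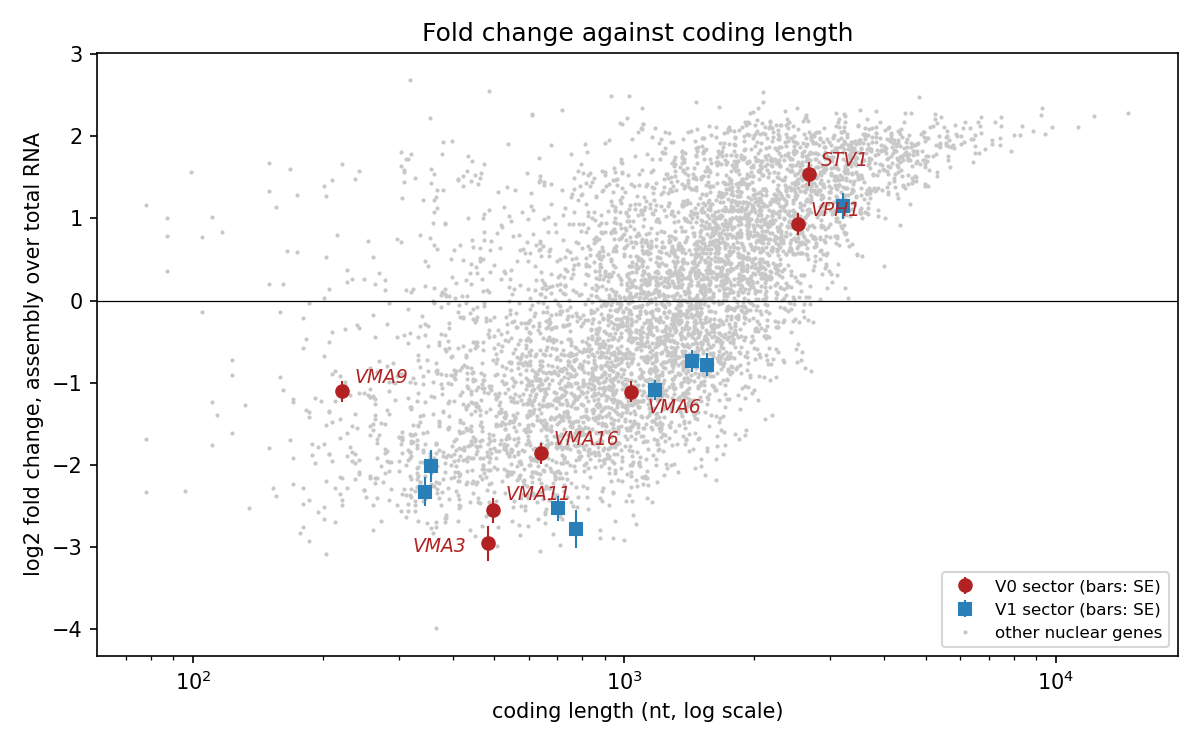
Log2 fold change of assembly over total RNA against coding length (log axis), with the V0 genes (circles, named), the V1 genes (squares) and the other nuclear genes tested (dots); bars are SE. VPH1 and STV1 lie within the main cloud of long genes, and VMA3 (-2.95) lies at the lower edge of the short genes.

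The proteolipid mRNAs had a base composition in common. Their coding sequences were identical at 58.9% to 67.3% of aligned bases by pair, so the 3 genes are not separate cases. T made up 39.8% of the coding bases of VMA3, 36.2% of VMA11 and 37.1% of VMA16, where the median nuclear gene had 27.4% and the 95th percentile was 33.3%. Of 5896 nuclear genes, 99.5% had a lower share of T than VMA3, 98.5% than VMA11 and 98.9% than VMA16. The other members were also above the median, with 33.8% in VMA9, 32.9% in VPH1, 30.1% in VMA6 and 29.9% in STV1. Purines made up 42.0% of VMA3, 46.1% of VMA11 and 44.7% of VMA16, against a median of 53.4%. The other members were also below that median, with 46.85% in VMA9, 49.35% in VPH1, 52.41% in VMA6 and 52.56% in STV1. Over the 5504 genes tested, Spearman's rho between the share of T and the log2 fold change was 0.031, and -0.13 with coding length held constant. For the share of purines it was -0.22 with coding length held constant. Whether base composition bears on the values of the proteolipid genes was not tested.

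The other genes of the V-ATPase pathway were taken from lists by role, which were also chosen with earlier results of these data known. Their adjusted p-values come from the limma fit over all genes and describe these genes, rather than test them independently. Of 8 genes of the V1 sector, 1 was called higher and 7 were called lower in assemblies, with a median log2 fold change of -1.55. Of all genes tested, 41.3% were called higher and 40.8% lower. VMA1, the catalytic subunit A and the longest V1 gene (3216 nt), had 42785 ± 7228 normalised reads in assemblies, against 19143 ± 1880 in total RNA (n = 3 each, SD; log2 fold change 1.15, limma, adjusted p = 3.34e-05), and turned to -0.48 once length and GC content were modelled. VMA8, subunit D of the central stalk (771 nt), was the lowest, with 314.6 ± 108 in assemblies, against 2074 ± 221 in total RNA (n = 3 each, SD; log2 fold change -2.78, limma, adjusted p = 4.64e-07), or -1.79 with length and GC content modelled. The V1 genes also held a long gene that was higher and shorter genes that were lower; whether V0 and V1 differed was not tested.

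Of 5 genes of factors that assemble V0 in the endoplasmic reticulum, 0 were called higher, 4 lower and 1 not called (median log2 fold change -1.12). The shares over all genes tested were 41.3% higher and 40.8% lower. PKR1 (-2.01, limma, adjusted p = 4.46e-07), VPH2 (-1.89, adjusted p = 4.03e-07), VOA1 (-1.12, adjusted p = 1.63e-05) and VMA22 (-0.76, adjusted p = 0.000248) fell in assemblies. VMA21, the chaperone that escorts V0 out of the endoplasmic reticulum, had 341.4 ± 12.3 normalised reads in assemblies, against 283.8 ± 15.4 in total RNA (n = 3 each, SD; log2 fold change 0.27, limma, adjusted p = 0.0589). Its coding sequence is short (234 nt), and the value was -0.30 under equal library totals and 1.43 once length and GC content were modelled (called higher). In that fit VMA22 turned to 0.58 and VOA1 to 0.033, PKR1 had -0.94 and VPH2 -0.55. The call of VMA22 was also lost after quantile normalisation (-0.20). VMA21 and VOA1 have 156 bases between them on chromosome VII, with their 3' ends facing, and without a stated strand setting, reads from their untranslated regions cannot be told apart.

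The counts of the next 2 lists stand beside 41.3% called higher and 40.8% called lower over all genes tested. The RAVE complex, which joins V1 to V0, had 3 genes, of which 1 rose, 1 fell and 1 was not called (median log2 fold change -0.074). RAV1, its largest subunit (4074 nt), had 3144 ± 491 normalised reads in assemblies, against 936.6 ± 24.0 in total RNA (n = 3 each, SD; log2 fold change 1.73, limma, adjusted p = 4.31e-07), but its value was 0.10 and its call was lost once length and GC content were modelled. SKP1, which also serves in ubiquitin ligases, was lower (-1.83, limma, adjusted p = 5.63e-07), and RAV2 had -0.074 (adjusted p = 0.592), -0.64 under equal library totals and 0.68 once length and GC content were modelled. Of 7 genes of vacuolar transporters, most of which use the proton gradient to move ions or amino acids, 3 rose, 1 fell and 3 were not called (median 0.15, and -0.42 under equal library totals). VNX1, a sodium and potassium exchanger, was highest, with 2870 ± 445 in assemblies, against 741.6 ± 21.0 in total RNA (n = 3 each, SD; log2 fold change 1.94, limma, adjusted p = 3.26e-07), and had a log2 fold change of 0.37 with length and GC content modelled. AVT1, an amino acid transporter, was lowest (-0.31, limma, adjusted p = 0.0493), and its call was lost without assembly library 1 (adjusted p = 0.0954) and without total RNA library 1 (0.115), 2 (0.0694) or 3 (0.178).

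**Figure D5:**
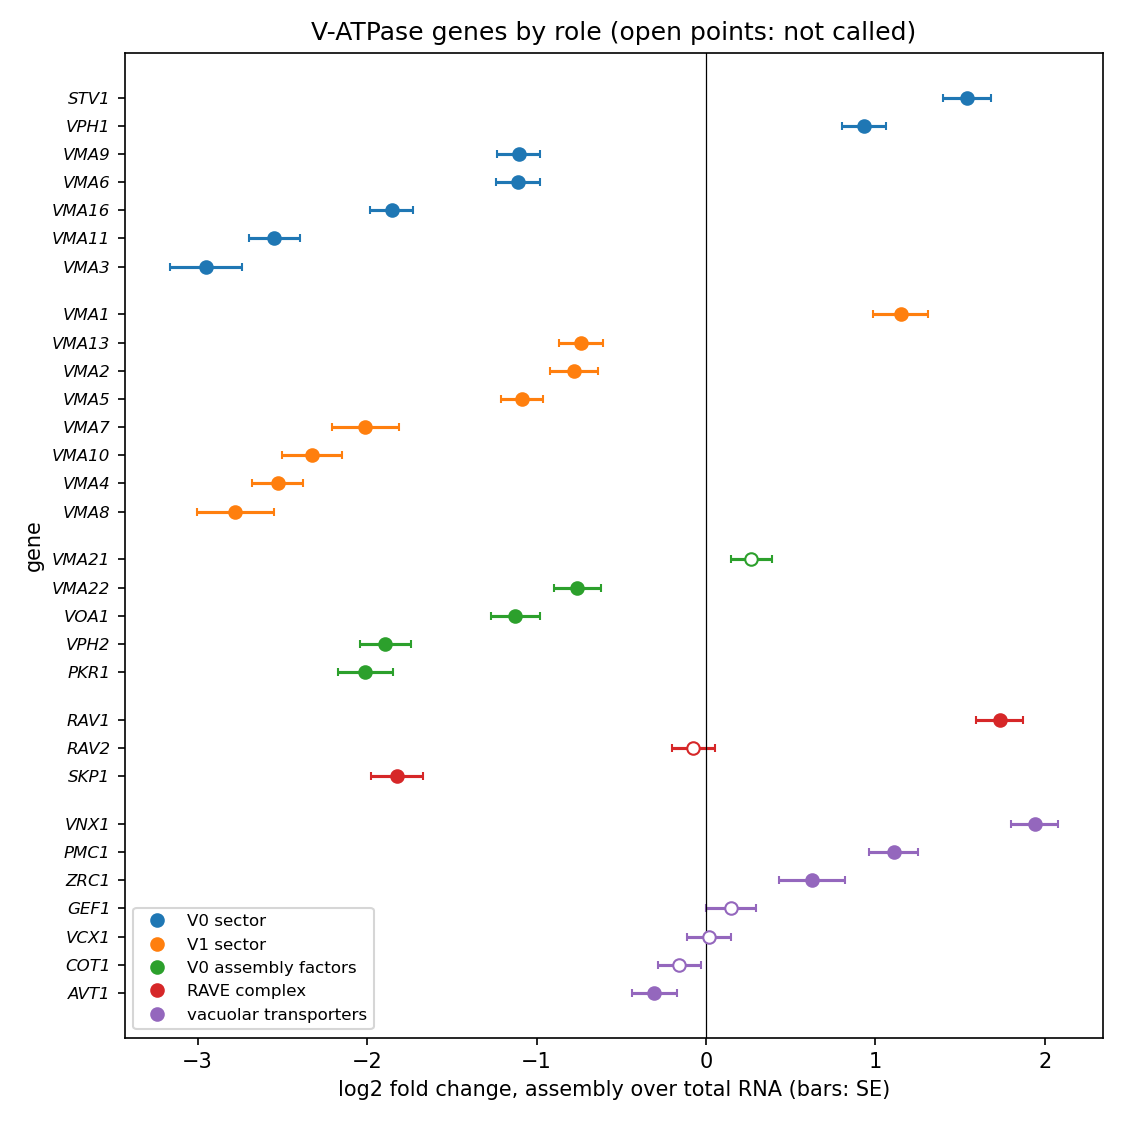
Log2 fold change of assembly over total RNA, with SE, of the V0 genes and the genes of the V1 sector, V0 assembly factors, RAVE complex and vacuolar transporters; open points were not called by limma. Values run from -2.95 (VMA3) to 1.94 (VNX1), and each list except the V0 assembly factors has called genes on both sides of 0.

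Other genes followed the same course over the 6 libraries, by Pearson's r of log2(value + 1) among 4699 genes with a mean of at least 100; the points share libraries and size factors, and the r mostly reflects the gap between the groups. The genes most like VPH1 were LSC1 (0.9992), ELO3 (0.9991) and CBP1 (0.9987), and 93 genes had an r over 0.99. Most like VMA3 were the ribosomal protein genes RPS6B (0.9998), MRPL20 (0.9998) and RPS25A (0.9997), of which MRPL20 encodes a protein of the mitochondrial ribosome, and 491 genes had an r over 0.99. RPS6B and RPS25A have closely similar second copies with which reads can be shared, so their values are uncertain. Like VMA3, these 3 genes were lowest in assembly library 3 and highest in total RNA library 3, which their choice by r over the same 6 libraries favours. Most like VMA9 were PDP3 (0.9987), ALG14 (0.9982) and ROK1 (0.9979), among 112 genes with an r over 0.99. An r does not measure the size of a change, and their log2 fold changes were -0.59, -0.65 and -0.64, against -1.11 for VMA9.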

How the data were processed

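Libraries of 3 RNA assemblies and 3 total RNA samples were made as paired ends with the Illumina Nextera kit after Ribo-Zero treatment, per the labels' protocols. The submitters' processing notes name genome build R64 and the tools Bowtie 0.12.7, DESeq 1.22.1, FastQC, HTSeq and Trimmomatic 0.32. The signal deposited by the authors is, per the file headers, a normalised read number for each open reading frame. It gave whole reads for 100% of nonzero values (tolerance 0.01) when divided by the step of its library, with size factors of 0.821 to 0.848 in assemblies and 1.16 to 1.32 in total RNA. No strand setting is stated in the sources used here. Counting errors cover counting only, and read totals of 8749240 to 10531980 set them.

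Values were fitted as log2(value + 1) by limma 3.58.1 in R 4.3.3, using an empirical Bayes trend, for 5670 genes whose mean was at least 10. All 6 libraries entered without a covariate, tests were two-sided, and Benjamini-Hochberg adjusted p-values under 0.05 were called. Changes of weakly expressed genes are understated on that scale. The fit was tested on simulated data. Alternatives were other pseudocounts, no filter, equal totals, quantile normalisation, length and GC content modelled by splines, edgeR 4.0.16 and DESeq2 1.42.0 on recovered reads, a replicate block, total RNA libraries 1 and 2 averaged, and each library left out. RefSeq R64 coding sequences matched 5915 of 6603 identifiers and were aligned with Biopython 1.88.

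The members and lists were chosen with earlier results of these data known. Named genes are all members, each gene of a list of 5 or fewer, otherwise the highest, the lowest and any called against most of the list, and the 3 genes most like VPH1, VMA3 and VMA9.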

Additional observations from a re-analysis of the deposited data

How the results depend on the processing

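The 7 V0 members kept their direction and call under other pseudocounts, no filter, equal totals, quantile normalisation, edgeR, DESeq2, averaged total RNA libraries and each library left out (median of the members -1.18 to -1.03 without a library). The exceptions came once length and GC content were modelled, where VPH1 turned to -0.11 and VMA9 lost its call, so that 1 member was called higher (STV1). The median over V0 was then -0.38, and it was -1.67 under equal totals, -1.71 after quantile normalisation and -1.21 by edgeR. With length and GC content modelled, the V1 median was -1.13 with 0 called higher (VMA1 turned to -0.48), the V0 assembly factors had 2 called higher and 2 lower with a median of 0.033 (VMA22 turned to 0.58 and VOA1 to 0.033), RAVE had a median of 0.10 with RAV2 at 0.68 and RAV1 no longer called (0.10), and the transporters had a median of -0.19 with 3 called lower. In that fit 34.6% and 35.4% of 5504 nuclear genes were called higher and lower. Under equal totals 1584 of 5670 genes were called higher and 3045 lower, and the medians were -2.11 for V1, -1.69 for the assembly factors (VMA21 turned to -0.30), -0.64 for RAVE (2 called lower) and -0.42 for the transporters (4 called lower). After quantile normalisation they were -2.00 for V1, 0.30 for RAVE (2 called higher, RAV2 at 0.30) and -0.088 for the transporters (2 called lower), with 1 assembly factor called higher (VMA21) and VMA22 no longer called (-0.20), and edgeR gave RAVE -0.17. PDP3 and ALG14, named as like VMA9, turned to 0.41 and 0.36 with length and GC content modelled, and ALG14 lost its call after quantile normalisation (-0.12), as did LSC1 and ELO3, named as like VPH1, there and under equal totals. Over all genes, edgeR called 2232 higher and 2471 lower and DESeq2 2302 and 2281, against 2342 and 2316 by limma. After quantile normalisation limma called 2406 higher and 2103 lower. The call of AVT1, the transporter called lower, was lost (0 called lower) with no filter, with averaged total RNA libraries and without assembly library 1 or any 1 total RNA library (0 to 1 called lower over the libraries left out). With 200 nt added, levels per kb in total RNA were 6618 for VMA3, 2808 for VMA6, 1783 for VMA16, 1318 for VMA11, 1038 for VMA9 and 319.9 for STV1. The cause of these shifts was not tested beyond what each setting changes. The labels do not say that equal numbers share a preparation, so the numbers were not taken as pairs. In deviations from group means, same-numbered libraries had r of 0.078, 0.17 and 0.28, which does not settle whether they are pairs. Assembly library 2 correlated best with total RNA library 1 (0.22), but total RNA libraries 1 and 2 were themselves the closest pair. A replicate block gave 2375 genes higher and 2350 lower and changed no count over a list, with 2 V0 members higher and 5 lower as before. Depth limits VMA11 and VMA9 most, at 115 to 173 reads per assembly library.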
